A study of Mus musculus with 8 samples.

Results

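The genes described here encode 7 receptors through which T cells find tissues: Ccr1, Ccr2, Ccr9, Cxcr4, Cxcr6, Cx3cr1 and Ackr3. They were taken by name as a receptor family, 7 of the 18193 genes that the mouse array measures with at least 1 probe set (a group of short probes for a transcript) paired with a single gene symbol. Where a gene had several probe sets, the one with the highest mean over the 8 arrays served as its main probe set and the others as a check. The study set out 4 kinds of CD4 helper T cell, with 2 arrays each. The Tfh (follicular helper) group was CD4+CXCR5+ spleen cells, sorted on day 7 after C57BL/6 mice (age not given) were immunized with the protein KLH. After the sort these cells were restimulated through CD3 with an antibody for 4 h. The Th1, Th2 and Th17 groups started as naive CD4 T cells from spleen and lymph node of OT-II mice, which carry a transgenic T cell receptor on the C57BL/6 background and were 6 to 8 weeks old. Peptide for that receptor and antigen-presenting cells served to activate them, and they were kept 5 days in RPMI medium with 10% serum. The Th1 cultures received IL-12 at 10 ng/ml and an antibody to IL-4, the Th2 cultures IL-4 at 10 ng/ml and an antibody to IFN-gamma, and the Th17 cultures IL-6 at 20 ng/ml, TGF-beta and antibodies to both IL-4 and IFN-gamma.

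Chemokines are small secreted proteins, and their receptors span the membrane and signal through inhibitory G proteins to turn a cell towards higher ligand levels. Cxcr4 answers Cxcl12 from bone marrow and lymphoid stroma and holds cells in those tissues, while Ackr3 binds the same ligand, and Cxcl11, and removes it without G protein signalling. Ccr1, for ligands such as Ccl3 and Ccl5, and Ccr2, for Ccl2, Ccl7 and Ccl12, draw myeloid cells and activated T cells to inflamed sites. Cxcr6 binds Cxcl16 and is known for T cells of the liver and lung, Ccr9 binds Ccl25 of the thymus and small intestine, and Cx3cr1 binds Cx3cl1 on endothelium and marks monocytes and cytotoxic T cells.

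The source of the cells, their handling and their type changed together between the Tfh group and the rest, so these cannot be told apart in any comparison with Tfh. The labels leave unstated how the replicates arose (other animals, other cultures or the same), and all 3 comparisons with Tfh share the same 2 Tfh arrays. Those arrays were close to each other, with 11 of 11178 tested genes more than 1 log2 unit apart, where the replicates of Th1, Th2 and Th17 had 1435, 696 and 1339. Whether they are independent samples was not tested, and averaged as 1 sample they no longer gave the Cxcr4 calls against Th2 (adjusted p = 0.0775) and Th17 (adjusted p = 0.105). The groups carried their defining genes: Bcl6 averaged 11.95 on the log2 scale in Tfh and was at most 8.62 elsewhere, Ifng stood at 15.39 and 15.07 in Th1, Il4 at 15.20 and 15.57 in Th2 and Il17a at 14.35 and 13.93 in Th17. Other lineage genes did not set Tfh apart from the group they mark. Tbx21, the Th1 regulator, read 10.66 and 10.59 in Tfh and 10.89 and 9.43 in Th1, and Gata3, the Th2 regulator, read 10.67 and 10.52 in Tfh and 10.44 and 11.13 in Th2. Ifng also reached 14.12 in Th2 replicate 1 and 13.30 in Th17 replicate 1, and Il4 reached 10.60 in Th1 replicate 2. All 7 T cell markers on the array lay above the 50th percentile of all values (3.13) in all 8 arrays. Markers of other cells were present too, and their values are given beside the receptors they moved with. The Tfh arrays held higher values as a whole, with a median gene 0.85, 0.84 and 0.83 log2 units above Th1, Th2 and Th17 as deposited, a shift that became -0.16 in each after quantile normalization and -0.36, -0.37 and -0.33 after arrays were moved to the same median. A call is said to hold in all 3 scalings where it was made on the deposited values and after both of these. Th1 replicate 2 stood apart from Th1 replicate 1 for 4 of the 7 receptors, so the differences of these 4 between Tfh and Th1 are also given without either Th1 array.

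Of the 7 receptors, Cxcr4 was called higher in Tfh than in each cultured type and Ccr1 was called lower in Tfh than in Th2 and Th17. A call needed a Benjamini-Hochberg adjusted p under 0.05 in limma, over 11178 genes above the 50th percentile in at least 2 arrays, and a difference of at least 1 log2 unit. All 7 receptors entered the test, but Cx3cr1 passed the filter only through the 2 Tfh arrays and Ackr3 only through the 2 Th17 arrays, so that some difference in these was built in. Against Th1, 1 receptor was called higher in Tfh, 0 lower and 6 neither, where 42.8% of all tested genes were called higher in Tfh and 6.16% lower. Against Th2 the counts were 1, 1 and 5, with 42.8% of all tested genes called higher and 6.89% lower. Against Th17 they were again 1, 1 and 5, with 41.8% called higher and 6.17% lower. In all 3 scalings, 1 receptor stayed higher against Th1 (12.4% of all tested genes), 0 against Th2 (13.0%) and 0 against Th17 (11.6%). The matching counts of lower calls were 0 against Th1 (6.11%), 1 against Th2 (6.86%) and 1 against Th17 (6.13%). The median difference of the 7 receptors was 0.66, 0.60 and 0.63 against Th1, Th2 and Th17, close to that of all tested genes given above. The median receptor thus lay slightly below the median gene in all 3 comparisons. Against Th2 and Th17 that receptor was Cx3cr1, whose difference was partly built in, so these medians are no result about the family. The 2 receptors with called differences moved in opposite directions.

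**Figure D1:**
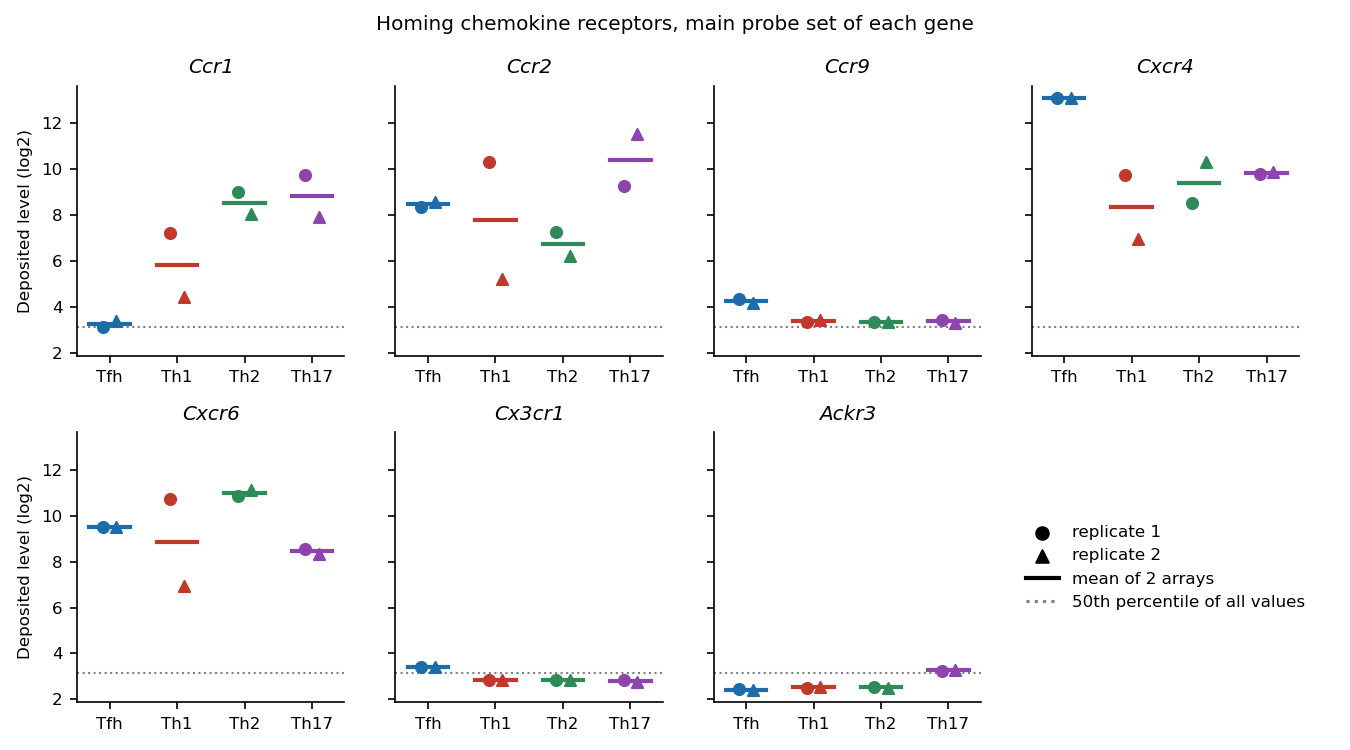
Deposited level (log2, y axis) of the main probe set of each of the 7 receptors in the 2 arrays of each group (x axis); circles are replicate 1, triangles replicate 2, bars the mean of 2 arrays, and the dotted line the 50th percentile of all values. Cxcr4 is highest in both Tfh arrays, Ccr1 is lowest there, and in Th1 the triangle of Ccr1, Ccr2, Cxcr4 and Cxcr6 lies 2.76 to 5.09 below the circle.

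Cxcr4 and Ccr1 carried the called differences, and the 250 bases before their transcription starts are shown because the genes moved in opposite directions between Tfh and the cultures. The sequences are those of RefSeq on GRCm38.p6, chr1:128592300-128592549 on the minus strand for Cxcr4 and chr9:123968693-123968942 on the minus strand for Ccr1, written 5′ to 3′ with motif matches in capitals.
Cxcr4: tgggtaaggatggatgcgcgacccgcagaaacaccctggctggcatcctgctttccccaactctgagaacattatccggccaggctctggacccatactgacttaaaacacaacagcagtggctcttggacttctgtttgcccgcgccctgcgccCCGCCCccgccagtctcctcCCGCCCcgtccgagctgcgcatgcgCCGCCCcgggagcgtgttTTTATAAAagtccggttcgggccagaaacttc
Ccr1: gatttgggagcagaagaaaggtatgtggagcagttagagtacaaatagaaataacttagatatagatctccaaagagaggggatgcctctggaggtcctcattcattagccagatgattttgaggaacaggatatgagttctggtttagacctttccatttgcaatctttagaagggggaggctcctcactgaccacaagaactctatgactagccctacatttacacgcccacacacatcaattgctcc
On both strands, 8 motifs were searched. They were the letters TATAAA of the TATA box, GGGCGG of the GC box, ACGTG for the factor HIF, TTCNNNGAA for STAT proteins, GGTGTGA for T-box factors, AGATAA for factors of the GATA family, AGGTCA for ROR and TGANTCA for the factor AP-1. The Cxcr4 window held 2 matches to the TATA box, from base 32 to 27 and from base 30 to 25 before the start, which overlap on opposite strands, and 3 to the GC box, from base 95 to 90, 75 to 70 and 50 to 45. The Ccr1 window held no match to either. Among 32536 promoters of the same length, 12.3% had the TATA letters and 33% those of the GC box. The other 6 motifs had no match in either window, and were found in 16.7% (HIF), 7.04% (STAT), 3.33% (T-box), 9.97% (GATA), 14% (ROR) and 6.73% (AP-1) of promoters. The Cxcr4 window was 61.2% G and C and that of Ccr1 43.6%, against a median of 52.4% over promoters. These matches are descriptions of letters, and binding was not measured.

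Cxcr4, with the GC-rich window printed above, had its highest level in the Tfh cells. Its single probe set (1448710_at) read 13.09 and 13.08 in Tfh, 9.77 and 6.95 in Th1, 8.55 and 10.29 in Th2, and 9.79 and 9.87 in Th17. Both Tfh arrays lay above all 6 others, and the cultured groups overlapped except for Th1 and Th17, where both Th1 arrays were the lower. Within its own array Cxcr4 ranked at percentile 98.3 of all probe sets in both Tfh arrays and between percentile 74.9 (Th1 replicate 2) and 92.7 (Th2 replicate 2) in the cultures, a rank that moving an array as a whole up or down leaves unchanged.

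The difference in Cxcr4 was 4.73 log2 units against Th1 (SE 0.98, adjusted p = 0.00717, 26.5-fold). Against Th2 it was 3.67 (adjusted p = 0.0183, 12.7-fold) and against Th17 3.26 (adjusted p = 0.0285, 9.58-fold). Relative to the median gene these were 3.88, 2.83 and 2.43. The call against Th1 held in all 3 scalings, and its difference was 6.14 without Th1 replicate 1 and 3.32 without Th1 replicate 2. The call against Th2 held after quantile normalization (3.09, adjusted p = 0.0327) and not after the median shift (2.46, adjusted p = 0.0692). The call against Th17 held in neither (2.71, adjusted p = 0.0525, and 2.10, adjusted p = 0.112). The call against Th2 was also lost with single arrays taken away: leaving out the first or second Tfh array gave an adjusted p of 0.0774 or 0.0772 and leaving out the first Th2 array gave 0.0927. Against Th17 the call was lost on leaving out any 1 of 4 arrays, with 0.106 and 0.105 for the Tfh arrays and 0.0954 and 0.0885 for the Th17 arrays. The direction was the same in each of these.

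Cxcr4 is also made by neutrophils and B cells, and the summed markers of both were at their highest in the arrays where Cxcr4 was. The same held for the T cell markers, which summed to 92.92 and 92.55 in Tfh and 79.51 to 84.90 in the cultures. The Tfh arrays held higher values as a whole, which by itself raises a sum of deposited values. All 10 neutrophil genes on the array were above the 50th percentile in both Tfh arrays, against 1 to 8 in the cultures, and their summed log2 level was 101.82 and 101.61 in Tfh and 25.92 to 54.69 in the cultures. S100a8, a calcium-binding protein of neutrophils, stood at 14.93 and 14.85 in Tfh and at 2.87 to 11.10 in the cultures. Not all of the list followed: Cxcr2 read 4.03 and 4.01 in Tfh and 4.15 to 5.36 in the cultures. Mmp8 read 3.86 and 4.17 in Tfh and was highest in Th17 replicate 1, at 7.51. Of 7 B cell genes on the array, 5 were above that percentile in each Tfh array and 5 to 6 in each cultured array, with a summed level of 40.11 and 39.92 in Tfh and 22.96 to 38.88 in the cultures. Cd79b, a part of the B cell antigen receptor, had the highest level of that list in a cultured array, 8.95 in Th2 replicate 2, and read 8.30 and 8.38 in Tfh, while Pax5, which defines the B lineage, stayed at 2.05 to 2.38 in all 8 arrays. Ebf1, also of the B cell list, was lowest in Tfh, at 3.65 and 3.62 against 3.86 to 6.75 in the cultures. The part of neutrophils and B cells in the Cxcr4 signal was not tested. In bulk samples such as these, fewer cells of a type and less RNA per cell cannot be told apart.

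Ccr1 was lowest in Tfh and highest in Th17 and Th2. Its main probe set (1419609_at) read 3.14 and 3.40 in Tfh, 7.21 and 4.45 in Th1, 9.02 and 8.06 in Th2, and 9.73 and 7.92 in Th17. Both Tfh arrays lay below all 6 cultured arrays and at percentiles 46.4 and 49.7 within their own arrays, just below the middle of all probe sets. Th1 lay between Tfh and the other cultures without overlap, and Th2 and Th17 overlapped.

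The difference in Ccr1 was -5.27 log2 units against Th2 (SE 1.03, adjusted p = 0.00554) and -5.56 against Th17 (adjusted p = 0.00478). No fold is given, because the Tfh values lie below the middle of all probe sets on their own arrays. Both were called in all 3 scalings, and relative to the median gene they were -6.11 and -6.38. Because both other scalings lower Tfh on balance, that check is weak for a gene lower in Tfh. Against Th1 the difference of -2.56 missed the threshold (adjusted p = 0.0709), although it passed after quantile normalization (-3.20, adjusted p = 0.0384), after the median shift (-3.77, adjusted p = 0.0192) and without Th1 replicate 2 (-3.94, adjusted p = 0.0143). Without Th1 replicate 1 it was -1.18. The second Ccr1 probe set (1419610_at) read 3.09 and 2.98 in Tfh, 3.56 and 3.09 in Th1, 5.82 and 4.08 in Th2, and 6.38 and 3.85 in Th17. It had the same order of group means but smaller differences, -1.92 against Th2 (adjusted p = 0.113) and -2.08 against Th17 (adjusted p = 0.0926), and neither was called.

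**Figure D2:**
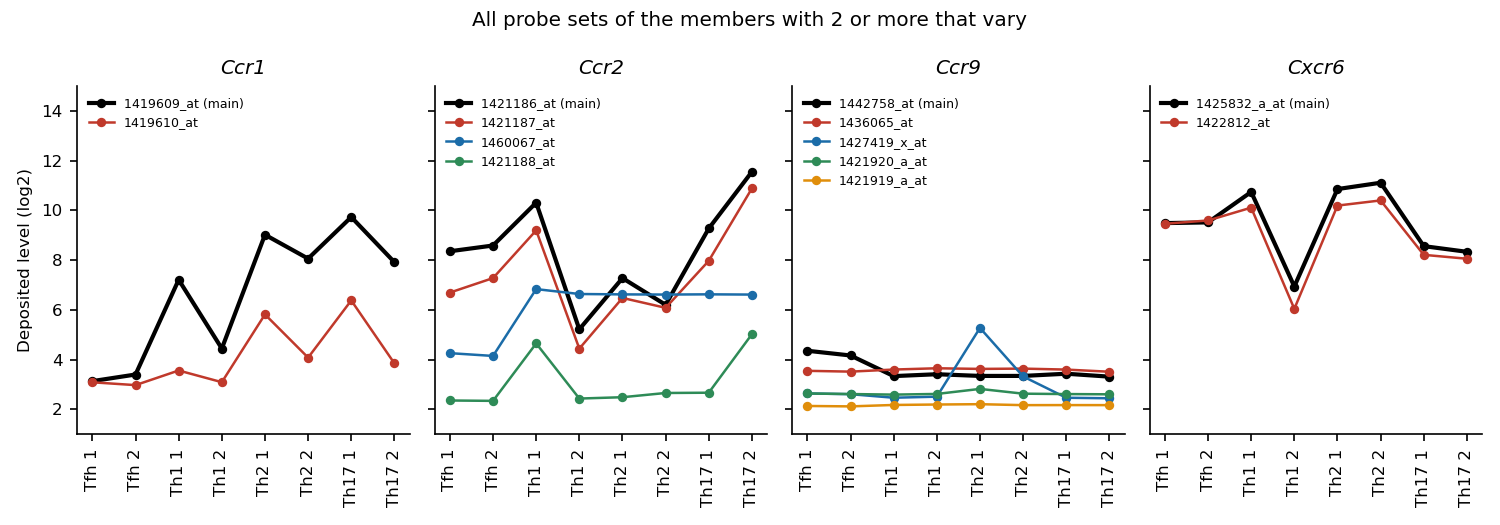
Deposited level (log2, y axis) of every probe set of Ccr1, Ccr2, Ccr9 and Cxcr6 in the 8 arrays (x axis), with the main probe set in black; lines only join the values of 1 probe set. The pair for Cxcr6 runs in parallel, the second for Ccr1 has the same order of group means as the first, and the blue probe set of Ccr2 is flat at 6.62 to 6.84 in the cultures while the black one spans 5.22 to 11.55.

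Macrophages, monocytes and dendritic cells are further sources of Ccr1, and the cultures began with antigen-presenting cells. Of 8 macrophage and monocyte genes on the array, 7 were above the 50th percentile in Th2 replicate 1 and Th17 replicate 1, 5 and 6 in their second replicates, 2 and 5 in Th1, and 6 in each Tfh array. Their summed level was highest in Th2 replicate 1 (57.15) and Th17 replicate 1 (47.43) among the cultures, and lowest in Th1 (21.55 and 28.71). The replicate with more of these transcripts was thus also the replicate with more Ccr1 in Th2 and in Th17. In Th1 the order was the other way, since replicate 1 had more Ccr1 and fewer macrophage transcripts. In Tfh the summed level was 48.42 and 48.66, higher than in 5 of the 6 cultured arrays, while Ccr1 was at its lowest. Within the list Mrc1 went the other way from the sum. It read 2.89 and 2.86 in Tfh and 3.94 to 8.48 in the cultures, and was highest in Th2 replicate 1. Among the defining genes, Csf1r, the receptor for macrophage colony-stimulating factor, read 7.47 and 7.65 in Tfh, 2.31 and 2.44 in Th1, 8.81 and 4.21 in Th2, and 6.26 and 3.29 in Th17. The lysozyme gene Lyz2 led the list at 11.42 in Tfh replicate 1, and Fcgr1, a high-affinity antibody receptor of macrophages, stayed at 2.50 to 2.63 in all arrays. The summed level of 7 dendritic cell genes was 25.09 and 25.00 in Tfh, 19.41 and 24.02 in Th1, 39.55 and 36.34 in Th2, and 35.14 and 23.87 in Th17. The summed level was thus highest in both Th2 arrays and Th17 replicate 1, but the genes of the list did not move together. Itgax and Ccl17 were highest in Th2, and Flt3 reached 6.91 in Th17 replicate 1 only. Zbtb46 was highest in Tfh, at 5.35 and 5.33 against 3.98 to 4.45 in the cultures. Xcr1 and Siglech stayed at 1.93 to 2.06 in all arrays. The chemokine Ccl22 led the dendritic list at 12.34 in Th17 replicate 1. CD8 and NK cell markers summed to 30.69 and 30.91 in Tfh and 24.18 to 45.42 in the cultures, led by the NK receptor gene Klrk1 at 11.67 in Th1 replicate 1. Erythroid and platelet markers summed to 17.00 and 16.30 in Tfh and 18.93 to 33.28 in the cultures, led by the platelet chemokine Pf4 at 11.84 in Th2 replicate 1. Eosinophil and mast cell markers summed to 24.12 and 23.75 in Tfh and 20.55 to 34.80 in the cultures, led by the mast cell protease Cpa3 at 9.25 in the same array. The part of any of these cells in the Ccr1 signal was not tested.

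**Figure D3:**
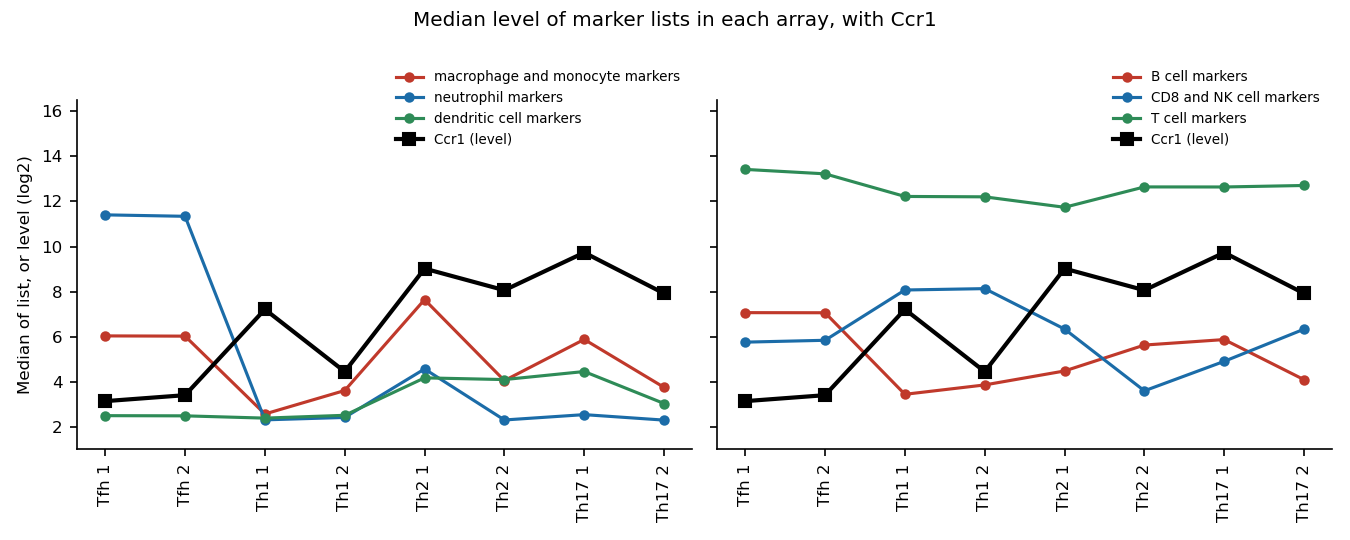
Median level (log2, y axis) of the markers of 3 myeloid cell types (left) and of B cells, CD8 and NK cells and T cells (right) in the 8 arrays (x axis), with the level of Ccr1 in black in both panels; lines only join values of 1 list or gene. The neutrophil median is above 11 in Tfh, where Ccr1 is below 4, and the macrophage median among the cultures is highest in Th2 replicate 1 and Th17 replicate 1, where Ccr1 reads 9.02 and 9.73.

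Ccr2, the receptor for Ccl2, was neither called higher nor lower between any of the groups, and its 2 Th1 arrays lay 5.09 apart, more than any 2 group means. The main probe set (1421186_at) read 8.36 and 8.59 in Tfh, 10.31 and 5.22 in Th1, 7.28 and 6.21 in Th2, and 9.27 and 11.55 in Th17. On the deposited values Tfh lay between Th2 and Th17 without overlap, and the Th1 arrays lay on either side of both Tfh and Th2. By rank within arrays, Tfh (percentiles 74.3 and 75.8) and Th2 (76.6 and 70.2) overlapped. Differences between Tfh and the cultures were 0.71 against Th1 (SE 1.68, adjusted p = 0.729), 1.73 against Th2 (adjusted p = 0.397) and -1.94 against Th17 (adjusted p = 0.346). The sign against Th1 hung on 1 array, with 3.25 (adjusted p = 0.0445) without Th1 replicate 1 and -1.84 without Th1 replicate 2. Fitted with only the Tfh and Th2 arrays, the difference of 1.73 passed the threshold (adjusted p = 0.0258).

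The probe sets of Ccr2 disagreed. A second one (1421187_at) ran with the main one, at 6.70 and 7.28 in Tfh, 9.20 and 4.44 in Th1, 6.48 and 6.08 in Th2, and 7.97 and 10.88 in Th17. Another (1460067_at) read 4.26 and 4.15 in Tfh and 6.62 to 6.84 in all 6 cultures, with differences of -2.53, -2.41 and -2.42 against Th1, Th2 and Th17 (adjusted p = 1.34e-04, 1.50e-04 and 1.64e-04). The last (1421188_at) was above 4 only in Th1 replicate 1 (4.65) and Th17 replicate 2 (5.02), the 2 arrays where the main probe set was highest, and at 2.34 to 2.67 in the others. Taken as their mean, the probe sets gave -0.71 against Th1 and -0.05 against Th2, so no direction for Ccr2 in Tfh is given here.

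Cxcr6, the receptor for Cxcl16, was high in Th2 and lower in Th17, with Tfh between them. Its main probe set (1425832_a_at) read 9.49 and 9.52 in Tfh, 10.74 and 6.94 in Th1, 10.86 and 11.11 in Th2, and 8.56 and 8.34 in Th17. The Tfh, Th2 and Th17 arrays did not overlap, and the Th1 arrays lay on either side of both Tfh and Th17. A second probe set (1422812_at) gave 9.46 and 9.59, 10.11 and 6.04, 10.19 and 10.40, and 8.21 and 8.06 in the same order of arrays, so that both put Th2 above Tfh, Tfh above Th17 and Th1 replicate 1 above Th1 replicate 2. The means of Th1 and Th17 came in opposite order in the 2 probe sets.

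None of the differences in Cxcr6 was called. They were 0.66 against Th1 (SE 1.13, adjusted p = 0.628), -1.48 against Th2 (adjusted p = 0.287) and 1.05 against Th17 (adjusted p = 0.441), and 2.53 between Th2 and Th17 (adjusted p = 0.414). The fit pools the spread of all 4 groups, and the SD over the 2 arrays was 2.69 in Th1 against 0.02 in Tfh, 0.18 in Th2 and 0.16 in Th17. Without Th1 replicate 1 or without Th1 replicate 2, Cxcr6 was called lower in Tfh than in Th2 (adjusted p = 0.00112 and 9.93e-04), higher in Tfh than in Th17 (0.00345 and 0.00303) and higher in Th2 than in Th17 (0.00962 and 0.00986). With only the 2 groups compared, the calls against Th2 and Th17 were also made (adjusted p = 0.00128 and 0.00818). The direction against Th17 turned after quantile normalization (-0.16) and the median shift (-0.11), and that against Th2 did not (-2.58 and -2.69). Against Th1 the value was 2.56 (adjusted p = 7.17e-04) without Th1 replicate 1 and -1.24 (adjusted p = 0.00418) without Th1 replicate 2, both past the threshold in opposite directions.

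The Th1 replicates differed in the same direction for all 4 receptors described so far. Replicate 2 read lower than replicate 1 by 2.76 for Ccr1, 5.09 for Ccr2, 2.82 for Cxcr4 and 3.80 for Cxcr6. Gaps at least as large in that direction were seen in 94, 13, 89 and 36 of the 11178 tested genes, which is 0.841%, 0.116%, 0.796% and 0.322%. The low receptors Ccr9, Cx3cr1 and Ackr3 differed by at most 0.08 between the same 2 arrays. In Th17 the replicates went separate ways: replicate 1 minus replicate 2 was 1.81 for Ccr1, -2.28 for Ccr2, -0.08 for Cxcr4 and 0.23 for Cxcr6. In Th2 the gap was widest for Cxcr4, at -1.75.

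Ccr9, Cx3cr1 and Ackr3 read low in every group, between 2.40 and 4.36 on their main probe sets. Ccr9, the receptor for gut homing, read 4.36 and 4.17 in Tfh and 3.32 to 3.43 in the 6 cultures on its main probe set (1442758_at). Cx3cr1, the receptor for Cx3cl1, read 3.43 and 3.42 in Tfh and 2.76 to 2.86 in the cultures (1450020_at). In both genes the Tfh arrays lay above all cultured arrays, by 0.89, 0.92 and 0.89 against Th1, Th2 and Th17 for Ccr9 (SE 0.09, adjusted p = 5.45e-04, 4.54e-04 and 5.70e-04) and by 0.58, 0.60 and 0.63 for Cx3cr1 (SE 0.05, adjusted p = 2.64e-04, 2.30e-04 and 2.17e-04). These differences passed the p threshold and missed the limit of 1 log2 unit, so they were not calls. Relative to the median gene they were 0.04, 0.08 and 0.06 for Ccr9 and -0.26, -0.24 and -0.19 for Cx3cr1.

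Nothing in the ranks within arrays set Tfh apart for Ccr9. Its main probe set sat at percentiles 54.8 and 53.9 in Tfh and 53.6 to 54.7 in the cultures. After the median shift, Ccr9 (-0.32, -0.30 and -0.27) and Cx3cr1 (-0.62, -0.62 and -0.53) turned to the other side of 0. After quantile normalization Cx3cr1 stayed higher in Tfh (0.27, 0.29 and 0.30, adjusted p = 0.00507, 0.00385 and 0.00343), and its ranks were at percentiles 49.7 and 49.9 in Tfh and 42.7 to 44.9 in the cultures. Of all 45101 probe sets, 21283 (47.2%) had 6 cultured values within 0.25 of each other, as the main probe sets of Ccr9 and Cx3cr1 had. Among those, the difference between Tfh and the cultures ran from -0.35 to 1.55 between the 5th and 95th percentiles, a range that holds the 0.90 of Ccr9 and the 0.60 of Cx3cr1. The median of these differences was -0.04, and 11.3% of them were above 0.5, as those of Ccr9 and Cx3cr1 were. The other probe sets of Ccr9 read 3.51 to 3.65 (1436065_at), 2.60 to 2.82 (1421920_a_at) and 2.12 to 2.21 (1421919_a_at) in all 8 arrays, with the Tfh mean below that of each cultured type in 1436065_at and 1421919_a_at. A further one (1427419_x_at) stood at 5.28 and 3.32 in Th2 replicates 1 and 2 and at 2.45 to 2.64 elsewhere. The second probe set of Cx3cr1 (1450019_at) read 2.40 to 2.49 throughout.

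Ackr3, the scavenging receptor, was at its highest in Th17. It read 2.43 and 2.40 in Tfh, 2.51 and 2.56 in Th1, 2.54 and 2.51 in Th2, and 3.26 and 3.26 in Th17 (1417625_s_at). Both Th17 arrays lay above all 6 others, at percentiles 52.9 and 53.0 within their arrays against 26.2 to 32.2 in the rest. The difference was -0.84 for Tfh against Th17 (SE 0.04, adjusted p = 3.90e-05), -0.72 for Th1 against Th17 (adjusted p = 0.00712) and -0.73 for Th2 against Th17 (adjusted p = 0.00187). None reached 1 log2 unit as deposited. Against Tfh it did after quantile normalization (-1.0, adjusted p = 2.66e-05) and after the median shift (-2.0, adjusted p = 8.49e-06). The median shift also took Ackr3 past the limit for Tfh against Th1 (-1.32, adjusted p = 2.28e-05) and Th2 (-1.32, adjusted p = 2.19e-05), where all arrays read 2.40 to 2.56. The gene entered the test through these same 2 Th17 arrays, and no second probe set checks the value.

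**Figure D4:**
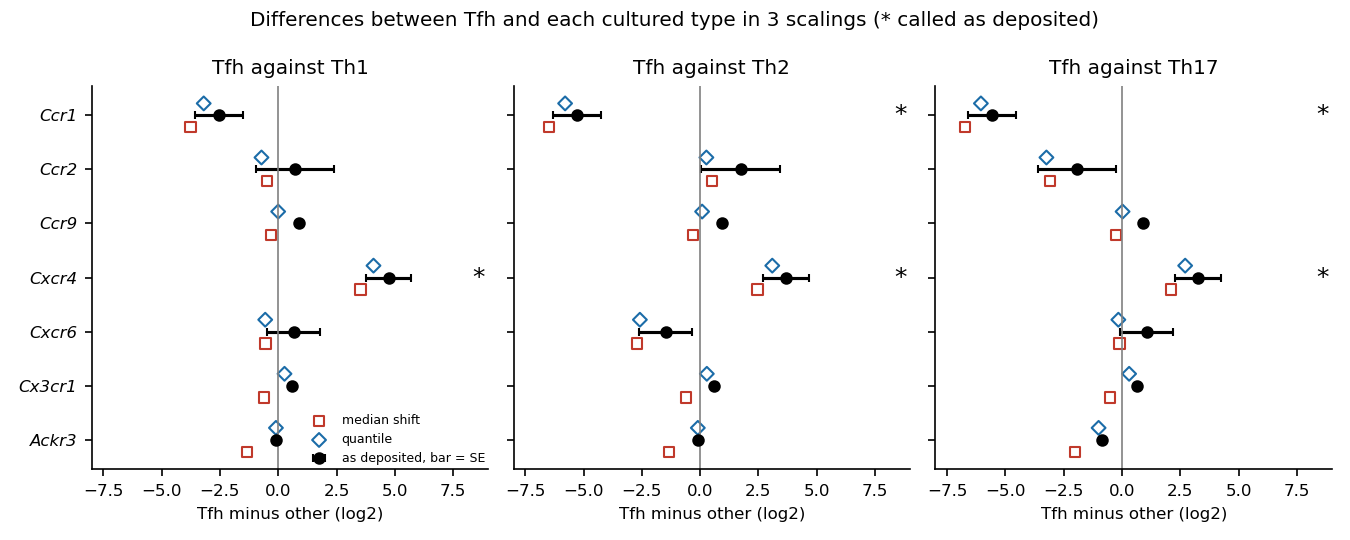
Difference of each receptor between Tfh and Th1, Th2 or Th17 (log2, x axis, positive is higher in Tfh) as deposited (black, bar is the SE), after quantile normalization (blue diamonds) and after the median shift (red squares); a star marks a call as deposited. Cxcr4 stays to the right and Ccr1 to the left of 0 in all 3 scalings and panels, while Ccr9, Cx3cr1, Cxcr6 and Ccr2 cross 0 in at least 1 panel.

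Between the cultured types no receptor was called. For Th1 against Th2, 0 of 7 were called, with 0.349% of all tested genes called higher in Th1 and 0.895% lower. For Th1 against Th17, 0 of 7 were called, with 0.0626% and 0.0805%. For Th2 against Th17, 0 of 7 were called, with 0.483% higher in Th2 and 0.188% lower. At an unadjusted p under 0.05 in limma, 1, 2 and 1 receptors passed. The share of all tested genes passing this limit was not counted, so these numbers are no result about the receptors. In both comparisons with Th17 they include Ackr3, which entered the test only through the Th17 arrays. Ccr1 gave -2.71 for Th1 against Th2 (adjusted p = 0.29) and -3.00 for Th1 against Th17 (adjusted p = 0.42). With single arrays left out these ran from -4.09 to -1.33 and from -4.38 to -1.61. Ccr2 gave -3.67 for Th2 against Th17 (adjusted p = 0.421), groups that did not overlap. Cxcr4 gave -1.06 for Th1 against Th2 (adjusted p = 0.673) and -1.47 for Th1 against Th17 (adjusted p = 0.708). With single arrays left out these ran from -2.47 to 0.35 and from -2.88 to -0.06. Cxcr6 gave -2.14 for Th1 against Th2 (adjusted p = 0.439), which became -4.04 without Th1 replicate 1 and -0.24 without Th1 replicate 2. For Th1 against Th17 it gave 0.39 (adjusted p = 0.943), which became 2.29 (adjusted p = 0.0238) without Th1 replicate 2 and -1.51 without Th1 replicate 1. The SEs were 0.98 to 1.68 log2 units for Ccr1, Ccr2, Cxcr4 and Cxcr6, and a receptor that was not called may still differ between the cultures.

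Other receptors that guide lymphocytes were for the most part called higher in Tfh. Of 18 listed, the array measured 16 and 11 were tested. In these, 9 were called higher in Tfh than in Th1, 0 lower and 2 neither, 6, 0 and 5 against Th2, and 7, 0 and 4 against Th17, with 5 higher in all 3 scalings each time. Over all tested genes the shares called higher were 42.8%, 42.8% and 41.8%, and 12.4%, 13.0% and 11.6% in all 3 scalings. Their median difference was 2.93, 2.34 and 2.33. That of the 7 receptors was 0.66, 0.60 and 0.63, where the values against Th2 and Th17 are those of Cx3cr1 and partly built in. Cxcr5, by which the Tfh cells were sorted, is counted among the 11 other receptors in each comparison, and its difference (6.87, 5.21 and 4.16) is no finding. Ccr6, which leads cells to Ccl20 at mucosal surfaces, was higher in Tfh by 7.80, 8.12 and 2.82, and was called lower in Th2 than in Th17 (-5.30, adjusted p = 0.0186 in limma), at 2.57 and 2.56 against 8.73 and 6.99. In Th1 (2.78 and 2.98) and Th2 it lay below the 50th percentile of all values, so the sizes of the differences from these groups are not resolved. Ccr8, a receptor of Th2 and skin-homing T cells and the chromosomal neighbour of Cx3cr1, was higher in Tfh than in Th1 by 6.78 and than in Th17 by 6.55. It was called lower in Th1 than in Th2 (-5.84, adjusted p = 0.0459), at 2.34 and 4.33 against 8.92 and 9.43, a call that did not hold in all 3 scalings. In Th17 Ccr8 read 4.56 and 2.56. Th1 replicate 1 and Th17 replicate 2 lay below the 50th percentile of all values, so the sizes of these Ccr8 differences are not resolved either.

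S1pr1, which lets T cells leave lymphoid organs, was higher in Tfh by 5.19, 5.64 and 3.84, and the atypical receptor Ccrl2 by 3.12, 3.89 and 3.51. Cxcr3, the receptor for interferon-induced chemokines, was higher by 2.93, 3.01 and 2.33, and Ccr7, for lymph node entry, by 1.07, 2.34 and 1.37. Neither the 3 calls of Cxcr3 nor those of Ccr7 against Th1 and Th17 held in all 3 scalings. Ccr4, for skin and Th2 homing, read 6.04 and 6.29 in Tfh, 3.48 and 4.13 in Th1, 6.68 and 7.95 in Th2, and 6.64 and 8.10 in Th17, and was called higher in Tfh than in Th1 only (2.36), not in all 3 scalings.

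The ligands of the 7 receptors were measured in the same arrays, and were called in both directions. All 15 listed were on the array and 9 were tested. Against Th1, 1 was called higher in Tfh, 2 lower and 6 neither, against Th2 2, 3 and 4, and against Th17 2, 1 and 6. The shares over all tested genes were 42.8%, 42.8% and 41.8% higher and 6.16%, 6.89% and 6.17% lower. None of the 9 was called between the cultured types in limma, where 0.0626% to 0.895% of all tested genes were called in a given direction. Ccl3, a ligand of Ccr1, read 10.50 and 10.47 in Tfh and 12.08 to 15.40 in the cultures, and was called lower in Tfh in all 3 comparisons (-4.78, -3.47 and -2.55). Ccl4, its close relative, was lower than in Th1 (-3.82) and Th2 (-2.30). Ccl6, also a Ccr1 ligand, was lower than in Th2 (-6.39), with Th2 at 12.10 and 8.87, Tfh at 4.10 and 4.09, and Th1 at 3.18 and 7.14. Ccl5, which binds Ccr1 as well, was higher in Tfh than in Th2 (2.13) and Th17 (3.58), so the ligands of Ccr1 did not move together. The Th2 call of Ccl5 did not hold in all 3 scalings.

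Cxcl11, a ligand of Ackr3 and Cxcr3, read 5.68 and 5.55 in Tfh and 2.52 to 2.96 in the cultures, higher in Tfh by 3.07, 3.08 and 2.70, each in all 3 scalings. It passed the filter only through the 2 Tfh arrays, so a difference was built in, and all 6 cultured values lay below the 50th percentile of 3.13. Stromal and epithelial ligands stayed low or flat: Cxcl12, for Cxcr4 and Ackr3, read 2.28 to 2.46, Cx3cl1 2.56 to 2.65, and Ccl25, for Ccr9, 4.36 to 4.82 over the 8 arrays. Mif, also on the ligand list, was high throughout, at 13.35 and 13.20 in Tfh and 13.86 to 14.24 in the cultures. Its differences of -0.87, -0.65 and -0.84 against Th1, Th2 and Th17 missed the limit of 1 log2 unit (adjusted p = 0.00174, 0.00528 and 0.00205 in limma). Ccl9 read 7.72 and 7.67 in Tfh and 7.33 to 11.53 in the cultures and was not called, and Ccl8 read 2.34 to 2.51. Cxcl16, for Cxcr6, read 3.32 to 5.33, with its highest value in Th2 replicate 1. In that array the Ccr2 ligands Ccl2, Ccl7 and Ccl12 also read 7.57, 4.08 and 4.34, while all other arrays read at most 3.05, 2.63 and 2.29. It is the cultured array with the highest summed level of macrophage and neutrophil markers, given above, and their part in this was not tested.

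**Figure D5:**
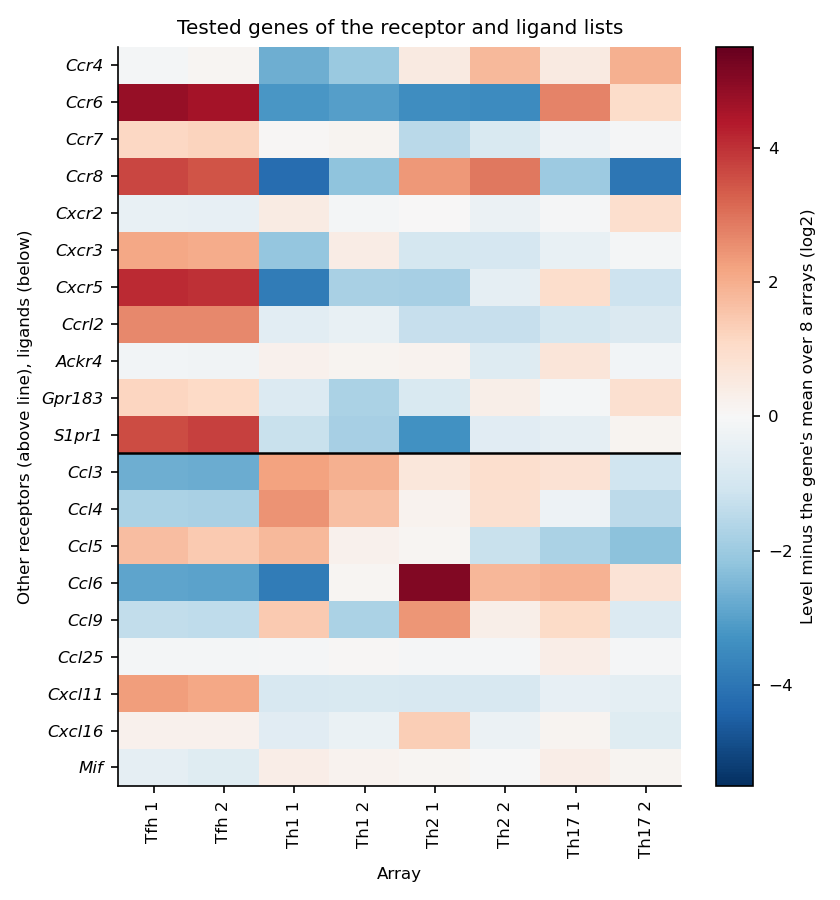
Level of each tested receptor of the comparison list (above the line) and each tested ligand (below) in the 8 arrays (x axis) as the log2 difference from the gene's mean over the arrays, red for higher and blue for lower. Most receptors are red in the 2 Tfh columns, Ccl3 and Ccl4 are blue there, and Ccr6 and Ccr8 separate the cultured types.

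Of the genes that carry the signal from the receptors, 10 to 12 were called higher in Tfh and 1 lower, by comparison. The list held 23, of which the array measured 22 and 21 were tested, with a median difference of 1.24, 1.60 and 1.26 against Th1, Th2 and Th17 beside 0.85, 0.84 and 0.83 for all tested genes. Against Th1, 11 were called higher in Tfh, 1 lower and 9 neither, with 3 and 1 in all 3 scalings, against Th2 12, 1 and 8, with 5 and 1, and against Th17 10, 1 and 10, with 3 and 1. Over all tested genes 41.8% to 42.8% were called higher and 6.16% to 6.89% lower, and 11.6% to 13.0% and 6.11% to 6.86% in all 3 scalings. Rgs10, which switches off the G proteins used by chemokine receptors, was higher in Tfh by 4.67, 3.76 and 4.10. Grk3, a kinase that phosphorylates activated receptors, was higher by 3.06, 2.83 and 3.09, and Rgs2, another regulator of G proteins, by 2.28, 2.70 and 2.43, all in all 3 scalings. Dock2, which links chemokine receptors to Rac and movement, was higher by 2.29, 2.67 and 1.94, in all 3 scalings against Th2 alone. Pik3cg, the lipid kinase activated by G proteins, was higher than in Th1 (2.39), not in all 3 scalings. Among the cultures 3 of 21 were called, all for Th1 against Th2: the receptor kinase Grk5 (-2.64), which did not hold in all 3 scalings, and Rgs3 (2.09) and Rgs16 (1.5), which did. Over all tested genes 0.349% were called higher in Th1 than in Th2 and 0.895% lower.

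The receptors also share their place in the genome. Ccr9, Cxcr6, Ccr1 and Ccr2 lie close together on chromosome 9, with protein-coding genes in the order Ccr9, Fyco1, Cxcr6, Xcr1, Ccr1, Ccr1l1, Ccr3 and Ccr2 in RefSeq on GRCm38.p6. Neighbours in the stretch did not share a pattern over the arrays. Xcr1 (1.96 to 2.01), Ccr1l1 (1.66 to 1.82) and Ccr3 (2.12 to 2.24) were low in all 8 arrays and lie on either side of Ccr1, which spanned 3.14 to 9.73. Fyco1, which is no chemokine receptor but a vesicle transport gene, read 8.13 and 7.87 in Tfh and 4.27 to 6.19 in the cultures, while Cxcr6 beside it had Tfh in the middle of its range.

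Over the 8 arrays, Ccr1 and Cxcr4 ran in opposite directions (Pearson r -0.48), and over the 6 cultured arrays in the same direction (0.69). Both figures rest on the same arrays, of which Th1 replicate 2 was low in both genes. The nearest tested genes to each receptor were sought by Pearson correlation of deposited values. For Ccr1 they were Timp1, an inhibitor of matrix proteases (0.995), Atp6v0d2, a proton pump subunit of macrophages and osteoclasts (0.988), and Serpinf1 (0.987) over 8 arrays, and Slc4a2, Timp1 and Cyb5r3 over the 6 cultures (0.989, 0.988 and 0.983). For Cxcr4 they were Rabac1 (0.988), Rap1gds1 (0.987) and Hif1a, the oxygen-sensing transcription factor (0.985), and over the cultures Secisbp2, Cish and Cd37 (0.984, 0.970 and 0.969). For Ccr2 they were Mxi1, Sae1 and Elovl6 (0.970, 0.966 and 0.948), and over the cultures Elk3, Zfp652 and Mapk1ip1 (0.991, 0.982 and 0.981). Cxcr6 had the weakest partners over 8 arrays, Cd53, Tmem30a and St3gal6 (0.923, 0.914 and 0.904), and Psen2, Clcn5 and Stk40 over the cultures (0.988, 0.976 and 0.974). Timp1, beside Ccr1, was the sole gene named for the same one of these 4 receptors over both sets of arrays.

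For the 3 low receptors the likeness follows the single group in which each stands out. Ccr9 had Lrrc1, Gsdma2 and Enpp6 (0.998, 0.998 and 0.997) and Cx3cr1 had Entpd2, Inava and Rin2 (0.999 each). Ackr3 had Stard8, Ahrr, the repressor induced by the aryl hydrocarbon receptor, and Ppp1r14c (0.999, 0.995 and 0.988), and over the cultures Stard8, Rnd2 and Ahrr (1.000, 0.999 and 0.999). Over the cultures Ccr9 had Ints13, Acsf3 and Adh1 (0.993, 0.979 and 0.978) and Cx3cr1 had Naip6, Pigu and Dbx1 (0.995, 0.994 and 0.992), where the values of the receptors spanned 0.12 and 0.10. All of these are descriptions over arrays that share their libraries with the receptors and, over all 8, a split by source.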

How the data were processed

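Transcripts were measured on 8 Affymetrix mouse arrays of 45101 probe sets, 2 for each of 4 groups. Per the submitters' processing notes the authors summarized them with GCRMA (version, and which arrays were normalized together, not given in the sources used here), and log2 is the scale of the deposited values, which were analysed without further normalization. Probe sets were named through the platform annotation: 34945 had 1 gene symbol, 932 several, 9160 none there, and 64 were controls.

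Each gene's main probe set had the highest mean over the arrays, and genes above the 50th percentile in 2 arrays were tested with limma 3.58.1 (lmFit, eBayes with trend, residual df 4) in R 4.3.3, with all 4 groups sharing the spread. Adjusted p-values are Benjamini-Hochberg values over 11178 genes, and rest on a spread between samples that may be technical. The procedure was tested on simulated data, in which a gene had the same spread in all groups and the Tfh arrays had no general shift. The real arrays differ in both, so the simulation does not show how reliable the calls are. The number of arrays limits the precision. The members and the lists of receptors, ligands, signalling genes and cell markers were chosen with earlier results of these data known. Genes named were the 7 receptors, their ligands, Ccr4, Ccr6, Ccr7, Ccr8, Cxcr3 and Cxcr5, up to 4 called genes of each list with the largest difference per comparison, the highest gene of a marker list, and the 3 most similar genes; other genes were named after their values were seen. Promoter and neighbour data are from RefSeq (GRCm38.p6), and all 7 receptors had a promoter entry. Alternatives were other scalings, filters, probe sets, variance models and thresholds, fewer arrays and a replicate block. Plots were drawn with matplotlib 3.10.9 and pandas 2.3.3 in Python 3.11.15.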

Additional observations from a re-analysis of the deposited data

How the results depend on the processing

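Of 747 values recomputed for single receptors under an alternative, 661 kept their direction and side of the threshold, 33 newly passed it, 14 no longer did and 39 changed sign. Other filters, variance models, fold thresholds and the replicate block leave the difference itself unchanged, so no sign could change there. Values that were not called before or after also count as kept. The 661 are therefore no measure of how stable the results are. The number of receptors called was 1, 2 and 2 for Tfh against Th1, Th2 and Th17, and 0 between cultures. Against Th1 it became 2 after quantile normalization (1 higher and 1 lower in Tfh), 3 after the median shift (1 and 2), 4 without the fold threshold and 2 with the replicate block. Of all 11178 tested genes, 1747 were called higher and 2365 lower against Th1 after quantile normalization, and 1605 and 3190 after the median shift. For the other alternatives named here the share of all tested genes was not counted, so the changed counts are no result about the receptors. Against Th2 it became 4 without the fold threshold, 4 with only the 2 groups compared and 1 with the Tfh arrays averaged as 1. Against Th17 it became 5 without the fold threshold and 1 with the Tfh arrays averaged. Without the fold threshold it became 1 for Th1 against Th17 and 1 for Th2 against Th17. Leaving out single arrays gave 1 to 3 in each comparison with Tfh and 0 to 1 in each between cultures.

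Signs changed in Tfh against Th1 after quantile normalization for Ccr2 (-0.72), Ccr9 (-0.0046) and Cxcr6 (-0.56) and after the median shift for Ccr2 (-0.50), Ccr9 (-0.32), Cxcr6 (-0.54) and Cx3cr1 (-0.62). After the median shift they changed against Th2 for Ccr9 (-0.30) and Cx3cr1 (-0.62) and against Th17 for Ccr9 (-0.27), Cxcr6 (-0.11, and -0.16 after quantile normalization) and Cx3cr1 (-0.53). The mean of probe sets turned Ccr2 against Th1 (-0.71) and Th2 (-0.051). Other probe sets of Ccr2 gave -2.53 and -1.19 against Th1, -2.41 and -0.22 against Th2 and 0.12 for Th1 against Th17, and that of Cxcr6 gave -0.059 for Th1 against Th17. Those of Ccr9 gave -0.093 and -0.058 against Th1, -0.0992, -1.67, -0.0995 and -0.061 against Th2, and -0.023 and -0.043 against Th17. Leaving out single arrays gave, for Tfh against Th1, -1.84 to 3.25 (Ccr2) and -1.24 to 2.56 (Cxcr6). For Th1 against Th2 it gave -1.52 to 3.57 (Ccr2), -2.47 to 0.35 (Cxcr4) and -0.018 to 0.032 (Ackr3), for Th1 against Th17 -1.51 to 2.29 (Cxcr6), and for Th2 against Th17 -1.28 to 0.47 (Cxcr4) and -1.19 to 0.62 (Ccr1). The causes were not tested.

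Replicate numbers were not taken as pairs, because arrays with the same number correlated over genes, as deviations from their group means, at -0.002 to 0.268 over the 6 pairs of groups. With the number as a replicate block, the count against Th1 rose from 1 to 2, since Ccr1 was then called (adjusted p = 0.03), and no other call changed. The filter at the 65th percentile gave no value for Ccr9, Cx3cr1 and Ackr3.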
